A study of Homo sapiens with 3 samples.

Results

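Peaks of anti-FOXM1 chromatin immunoprecipitation sequencing (ChIP-seq) were examined at 10 YAP, TEAD and kinase genes of the Hippo pathway. These were YAP1, WWTR1, TEAD1, TEAD2, TEAD3, TEAD4, LATS1, LATS2, STK3 and STK4. They are called the core genes below, and SAV1, MOB1A and MOB1B of the same pathway stand in another list. A peak was assigned to a gene when its summit, the position of highest enrichment, lay inside the gene or within 5 kb of it on GRCh38. By this rule 17 of the 8271 peaks of replicate 2 and 17 of the 11502 peaks of replicate 3 belonged to the 10 genes, out of 19974 protein-coding genes on chromosomes 1 to 22 and X. The material was untreated Huh7, an established line of human hepatocellular carcinoma cells. The series had 3 libraries, 1 of them an input for which no antibody was used and 2 of them precipitated with G-5, an antibody against FOXM1. Each ChIP library had its own peak list, and the labels do not say whether the libraries came from separate cultures. The series has no control precipitation and no FOXM1-depleted cells, so the specificity of the antibody was not tested. A peak list measures no expression, so the labelled cell type was not checked against marker genes.

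All 10 genes carried a peak in at least 1 library, against 46.2% of all protein-coding genes, and 7 carried peaks in both, against 28.5%. A replicate 2 peak was present at 9 of the 10, against 33.3%, and a replicate 3 peak at 8, against 41.3%. Peaks of the libraries overlapped at 4, TEAD3, TEAD4, LATS2 and STK3, against 25.5%. At TEAD1, TEAD2 and LATS1 both libraries had a peak, but at separate places. YAP1 and STK4 had peaks in replicate 2 alone and WWTR1 in replicate 3 alone. Fold enrichment ran from 2.84 to 5.24 in replicate 2 and from 2.51 to 6.71 in replicate 3, and the highest values lay inside STK3.

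The Hippo pathway is a kinase cascade that restrains organ growth. STK3 and STK4, also known as MST2 and MST1, activate the LATS1 and LATS2 kinases, and these phosphorylate YAP1 and WWTR1 (TAZ), which are then held in the cytoplasm or degraded. When the cascade is off, YAP1 and WWTR1 enter the nucleus and act as coactivators of the TEAD1 to TEAD4 transcription factors, which provide the contact with DNA. In the liver the cascade is known for limiting hepatocyte proliferation and liver size, and FOXM1 is a forkhead transcription factor of the cell division programme.

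The promoter stretches below are shown because a peak summit of at least 1 library fell inside them. RefSeq promoter windows (GRCh38.p14, 250 bases before the annotated start and 50 after) were at hand for 7 of the 10 genes, and 5 of these had a summit inside a window. Each sequence runs 5′ to 3′ on the strand of the gene, and capitals mark the bases under a called peak. The YAP1 stretch (chr11:102110197-102110496, plus strand) has 106 bases under a replicate 2 peak. The TEAD2 stretch (chr19:49362367-49362666, minus strand) has 104 bases under a replicate 3 peak. The TEAD3 stretch (chr6:35497030-35497329, minus strand) has 187 bases under a peak of at least 1 library, of which 135 are under peaks of both. The LATS1 stretch (chr6:149718052-149718351, minus strand) has 166 bases and the STK4 stretch (chr20:44966262-44966561, plus strand) has 171 bases, each under a replicate 2 peak.
YAP1: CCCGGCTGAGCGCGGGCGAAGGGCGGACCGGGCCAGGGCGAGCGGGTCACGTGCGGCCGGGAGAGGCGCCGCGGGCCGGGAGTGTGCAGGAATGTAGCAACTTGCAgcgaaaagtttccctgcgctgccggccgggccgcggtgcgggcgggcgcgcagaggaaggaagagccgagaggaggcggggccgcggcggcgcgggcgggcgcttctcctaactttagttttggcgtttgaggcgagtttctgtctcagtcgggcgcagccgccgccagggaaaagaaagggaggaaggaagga
TEAD2: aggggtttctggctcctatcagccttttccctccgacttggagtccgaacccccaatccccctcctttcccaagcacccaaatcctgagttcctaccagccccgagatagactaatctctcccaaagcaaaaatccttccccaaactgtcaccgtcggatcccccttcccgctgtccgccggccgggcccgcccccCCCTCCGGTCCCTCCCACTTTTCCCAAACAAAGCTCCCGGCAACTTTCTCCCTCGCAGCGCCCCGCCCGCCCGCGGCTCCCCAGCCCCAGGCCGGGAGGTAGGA
TEAD3: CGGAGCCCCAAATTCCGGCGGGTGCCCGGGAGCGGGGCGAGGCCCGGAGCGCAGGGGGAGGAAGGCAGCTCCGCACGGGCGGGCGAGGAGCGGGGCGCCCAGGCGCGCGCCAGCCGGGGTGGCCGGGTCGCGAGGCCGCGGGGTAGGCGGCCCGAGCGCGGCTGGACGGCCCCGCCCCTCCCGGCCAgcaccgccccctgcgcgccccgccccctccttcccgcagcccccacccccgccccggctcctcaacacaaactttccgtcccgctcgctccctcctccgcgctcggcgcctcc
LATS1: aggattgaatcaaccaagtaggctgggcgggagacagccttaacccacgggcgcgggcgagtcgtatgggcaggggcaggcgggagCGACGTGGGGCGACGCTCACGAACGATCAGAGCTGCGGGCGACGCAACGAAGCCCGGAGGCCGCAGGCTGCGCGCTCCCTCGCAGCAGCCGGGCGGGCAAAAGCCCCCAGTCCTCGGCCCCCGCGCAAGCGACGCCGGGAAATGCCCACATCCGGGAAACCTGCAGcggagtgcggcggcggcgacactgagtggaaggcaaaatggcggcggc
STK4: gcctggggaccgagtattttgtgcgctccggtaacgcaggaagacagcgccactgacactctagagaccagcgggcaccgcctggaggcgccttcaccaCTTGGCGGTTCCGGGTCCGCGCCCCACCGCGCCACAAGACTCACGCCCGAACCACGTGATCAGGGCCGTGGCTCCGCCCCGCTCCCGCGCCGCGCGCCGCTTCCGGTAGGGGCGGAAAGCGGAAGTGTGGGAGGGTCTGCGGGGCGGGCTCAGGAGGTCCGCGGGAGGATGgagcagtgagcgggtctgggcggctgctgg

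The G and C content of the 5 stretches ran from 64% in TEAD2 to 81.3% in TEAD3, against a median of 62.3% over the 22156 windows of protein-coding genes. Of those windows, 44.1% had a higher content than TEAD2, 24.9% than LATS1, 23.1% than YAP1, 22.2% than STK4 and 1.86% than TEAD3. TEAD3 held 44 CpG dinucleotides against a median of 21. Among listed windows under no peak, that of LATS2 and the other of TEAD2 held 67.7% each, and those of WWTR1 and LATS1 held 63% or less. The GC box GGGCGG, the element of SP factors, was present in all 5 on either strand, in 7 of the 10 listed windows of the 7 genes, and in 56.3% of all windows. The LATS2 window held 3 matches. No peak lay over it, but a replicate 3 peak (21061398 to 21061534) lay just beyond its downstream edge at 21061537. At least 1 match lay under a peak in each of the 5 stretches, and in STK4 there were 3, at 78, 42 and 10 bases before the start, where the distance is that of the first base of the match. The ETS element CCGGAA was under a peak in TEAD3 (238 bases before the start) and in STK4 (143 and 51 bases before), and 21.2% of all windows hold it.

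The forkhead core TAAACA was in none of the 5 stretches and in 9.52% of all windows. Among the 7 genes it occurred only in WWTR1, in both of its listed windows, and no peak lay over either of them. The cell cycle homology elements TTTGAA and TTCGAA, read through the MuvB complex that works with FOXM1, were in none of the 10 listed windows of the 7 genes, and in 12.4% and 1.53% of all windows. The TEAD element CATTCC was in YAP1, 162 bases before the start, in the form of its reverse complement. This match lay under the weaker replicate 2 peak of YAP1 (fold 2.88). The bases under the stronger peak lie outside the window and were not searched. CATTCC was also in LATS2, 9 bases after the start and under no peak, and in 12.2% of all windows. The NF-Y element CCAAT was in TEAD2, outside the peak, and in 34.6% of all windows, while the AP-1 element TGACTCA was in none of the 10 windows and in 4.02% of all. Both strands were searched for each element, no element searched contains another, and each match is a match of letters only.

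**Figure D1:**
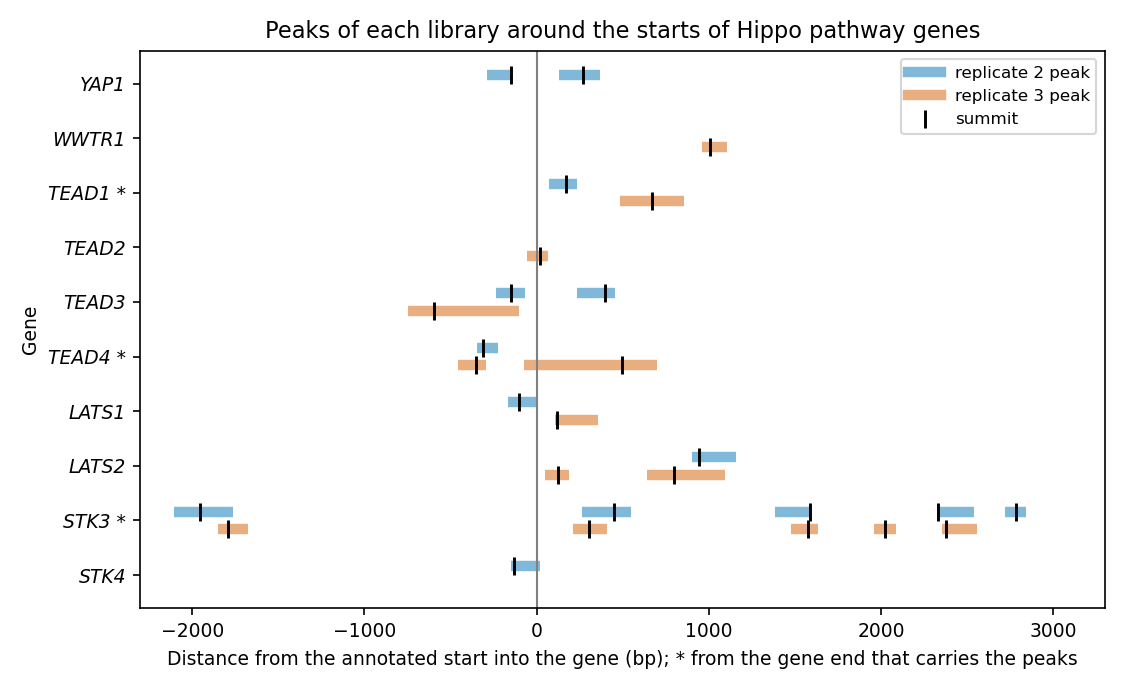
Peaks (bars) and summits (ticks) of replicate 2 (blue) and replicate 3 (orange), with the distance in bp from the annotated start into the gene on the x axis and the 10 genes on the y axis. For TEAD1, TEAD4 and STK3, marked *, the distance is from the gene end that carries the peaks, since no start was listed. The libraries overlap at TEAD3, TEAD4, LATS2 and STK3 and stand apart at TEAD1 and LATS1. The TEAD2 peak of replicate 2 and the peaks deep inside STK3 lie outside the plotted range.

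YAP1 and WWTR1, the coactivators at the output of the cascade, had no peak in common. YAP1 (chromosome 11, 102110447 to 102233424) had 2 peaks in replicate 2 and none in replicate 3. The stronger had its summit 271 bp past the annotated start (102110577 to 102110817). Its fold enrichment, the linear ratio over the local background that the authors' peak caller gave, was 4.89. Its −log10 q, the caller's adjusted significance, was 6.88, the highest of any replicate 2 peak at the 10 genes. This fold exceeded 90.9% of the peaks of its library or was equal to them. The peak rested on 30 fragments (exact Poisson 95% interval 20.2 to 42.8) over a control background of 4.41, both rebuilt from the deposited values. Here and below, fragments are given before a library scale (0.848 in replicate 2, 0.869 in replicate 3) is applied to them. The background is on the scaled level, so the ratio of the printed numbers is not the fold. The weaker peak had its summit 151 bp before the start, inside the printed stretch, with fold 2.88 on 26 fragments over a background of 7.0.

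The nearest replicate 3 peak lay 236395 bp from the stronger YAP1 peak. Replicate 3 had 2218 peaks at control backgrounds within 10% of 4.41, and the weakest of these had 17 fragments and fold 2.89. The stronger replicate 2 peak at YAP1 was above both. The lowest listed −log10 q was nearly the same in the libraries, 1.32 and 1.31, so a called peak tends to exceed such a minimum. This comparison, and the like ones for WWTR1 and STK4 below, cannot show whether the other library could have called the peak. The number of replicate 3 fragments at YAP1 was not given by its peak list, and the difference between the libraries was not tested.

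WWTR1 (chromosome 3, 149517235 to 149724788) had a single peak, in replicate 3 (149656919 to 149657064). Its summit was 1005 bp past the nearer of its listed starts, that at 149658025, and 67768 bp inside the gene from the nearer end. The fold was 4.44 and the −log10 q was 4.53, on 21 fragments (exact Poisson 95% interval 13.0 to 32.1) over a background of 3.33. The weakest of 1055 replicate 2 peaks at a like background had 15 fragments and fold 3.13. The nearest replicate 2 peak was 313297 bp away.

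The TEAD genes, whose products carry YAP1 and WWTR1 to DNA, all had peaks near a gene end in at least 1 library, and 2 of the 4 had overlapping peaks. TEAD3 (chromosome 6, 35473597 to 35497079) had the strongest shared locus of the family (35497143 to 35497827). The replicate 2 peak there had its summit 150 bp before the start, with fold 4.31 and −log10 q 3.81 on 19 fragments over a background of 2.97. The replicate 3 peak had its summit further upstream, at 35497674, with fold 4.74 and −log10 q 4.68 on 20 fragments over 2.88. The summits thus lay 445 bp apart within overlapping peaks, and the neighbouring gene TULP1 ends 645 bp from the former and 200 bp from the latter. Which of the genes the locus belongs to was not tested. Replicate 2 had a further TEAD3 peak 397 bp past the start, with fold 4.10, that no replicate 3 peak overlapped.

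TEAD4 (chromosome 12, 2959397 to 3040676) had peaks of both libraries just outside its lower-coordinate end (2958943 to 2959175), with summits 44 bp apart. Fold was 3.41 in replicate 2 on 27 fragments and 3.0 in replicate 3 on 23 fragments, over a control background of 6.0 in each. The −log10 q was 3.26 and 2.07, against a lowest listed value of 1.32 and 1.31. A second replicate 3 peak, 771 bp wide, lay across the same end (2959325 to 2960095), with fold 4.08 on 27 fragments. It overlapped no replicate 2 peak and was the widest peak at any of the 10 genes.

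TEAD1 (chromosome 11, 12674421 to 12944737) had 1 peak in each library inside its lower-coordinate end. The replicate 2 summit was 172 bp and the replicate 3 summit 669 bp from that end, and 247 bp without a call separated the peaks (12674496 to 12674658 and 12674906 to 12675277). Fold was alike, 3.63 in replicate 2 on 22 fragments and 3.62 in replicate 3 on 28 fragments, over backgrounds of 4.41 and 6.0. TEAD2 (chromosome 19, 49340595 to 49362416) had its peaks at opposite ends. The replicate 3 peak (49362347 to 49362470) had its summit 23 bp past the annotated start, with fold 3.63 and −log10 q 4.77 on 30 fragments, at a place also inside DKKL1. The replicate 2 peak (49340254 to 49340445) was 250 bp beyond the other end, inside CD37 and 15 bp from SLC6A16, with fold 3.40 and −log10 q 2.44 on 19 fragments. Replicate 2 had no call at the TEAD2 start, and its fragments there are not in its peak list.

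The kinase genes LATS1 and LATS2, which act directly on YAP1 and WWTR1, carried peaks within 1 kb of their starts, overlapping between libraries at LATS2 alone. At LATS1 (chromosome 6, 149658153 to 149718101) the replicate 2 summit was 104 bp before the start and the replicate 3 summit 121 bp after it. The peaks (149718100 to 149718265 and 149717742 to 149717993) did not overlap and were 106 bp apart. Fold was 2.98 in replicate 2 on 34 fragments over a background of 9.0, the highest background of any peak at the 10 genes. It was 3.51 in replicate 3 on 27 fragments over 5.98.

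LATS2 (chromosome 13, 20973036 to 21061586) had a shared locus past its start (21060426 to 21060945), with summits 943 bp from the start in replicate 2 and 797 bp in replicate 3. Fold was 4.29 in replicate 2 and 2.51 in replicate 3, which was the lowest fold of any peak at the 10 genes. The fragments were nearly the same, 20 (exact Poisson 95% interval 12.2 to 30.9) and 22 (13.8 to 33.3), while the control background at the summit was 3.19 in replicate 2 and 7.0 in replicate 3. The replicate 3 call was marginal, with −log10 q of 1.38 against a lowest listed value of 1.31. Replicate 3 had another LATS2 peak 126 bp past the start (21061398 to 21061534), with fold 3.98 on 23 fragments, where replicate 2 had no call.

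**Figure D2:**
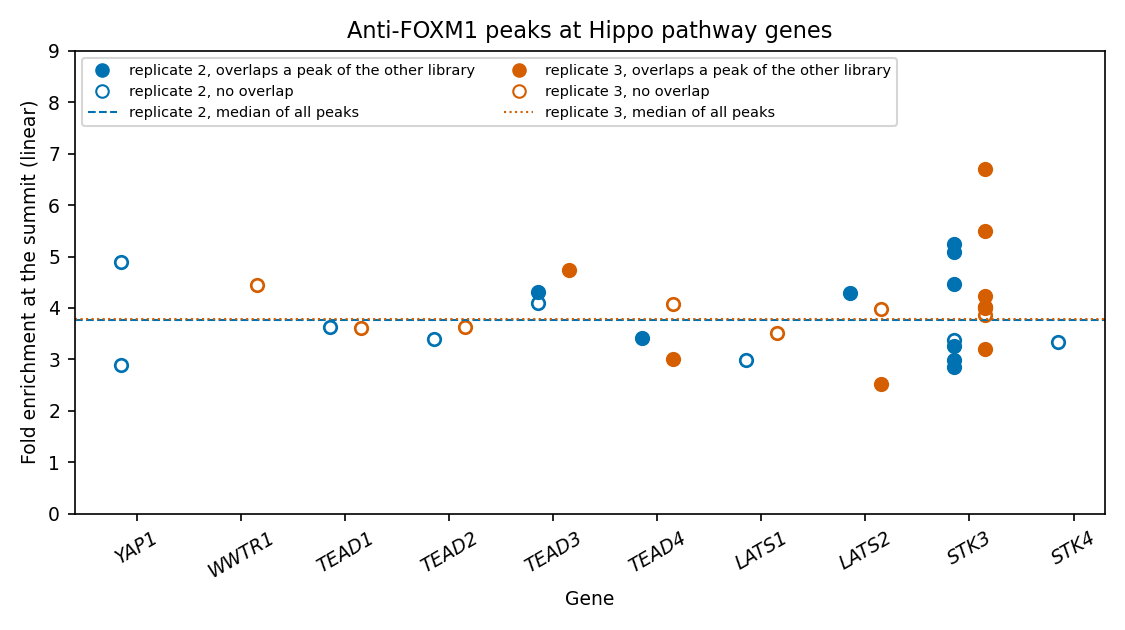
Fold enrichment at the summit (linear, y axis) of each of the 17 replicate 2 peaks (blue) and 17 replicate 3 peaks (orange) at the 10 genes (x axis). Filled points overlap a peak of the other library, open points do not, and the lines mark the median of all peaks of each library, 3.76 and 3.78. The points above 5 are all at STK3.

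STK4 and STK3, the kinases at the top of the cascade, differed in their number of calls. STK4 (chromosome 20, 44966512 to 45080021) had 1 peak, in replicate 2 (44966361 to 44966531), with its summit 128 bp before the start. Its fold was 3.33 and its −log10 q 3.11 on 27 fragments (exact Poisson 95% interval 17.8 to 39.3) over a background of 6.17. At a like background the weakest of 1705 replicate 3 peaks had 20 fragments and fold 2.63. The nearest replicate 3 peak was 5919 bp away and outside the 5 kb window.

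STK3 (chromosome 8, 98343975 to 98942610) had 7 peaks in replicate 2 and 8 in replicate 3, which formed 6 of the 9 shared loci at the 10 genes. No more than 18 protein-coding genes had as many peaks in replicate 2, and 26 in replicate 3, STK3 included. STK3 is also long, and only 1.06% of protein-coding genes are longer. Per 100 kb of gene and flank it had 1.15 peaks in replicate 2 and 1.31 in replicate 3, against 0.667 and 0.913 over all protein-coding genes. The control background at its peaks ran from 3.53 to 8.0 in replicate 2 and from 3.29 to 5.12 in replicate 3, with a median over all peaks of 5.0 in each library.

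Its strongest loci lay deep inside the gene. The first (98426637 to 98427692) had its replicate 2 summit 83028 bp from the lower-coordinate end. That place is also the edge of KCNS2, a potassium channel gene nested in STK3, with the summits 45 and 58 bp inside it, and which of the genes the locus belongs to was not tested. Fold there was 5.09 in replicate 2 on 26 fragments and 6.71 in replicate 3 on 32 fragments, and the summits were 13 bp apart. The replicate 3 value was the highest fold at the 10 genes, with −log10 q 10.8. A weaker replicate 3 peak (98427270 to 98427692), part of the same locus, had fold 4.02 on 22 fragments and its summit 436 bp from that of replicate 2. The second locus (98825278 to 98825695) had its replicate 2 summit 117173 bp from the upper-coordinate end, with no other protein-coding gene within 1 kb. It had fold 5.24 and 5.49, with 27 fragments in each library and summits 66 bp apart.

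The other 4 shared loci of STK3 clustered around the upper-coordinate end. The locus at 98942060 to 98942398 was 378 bp inside that end, with fold 4.47 in replicate 2 and 4.23 in replicate 3 on 29 and 26 fragments. Loci at 98940973 to 98941227 and at 98940054 to 98940286 followed further inside, with fold 3.25 and 4.01 at the former and 2.99 and 3.21 at the latter. Nearby, each library had 1 peak that the other did not overlap, with fold 3.38 in replicate 2 (98939766 to 98939891) and 3.86 in replicate 3 (98940525 to 98940652). The predicted gene LOC112268016 covers all these places as well. The last locus (98944287 to 98944716) was outside STK3 and at the edge of OSR2, a zinc finger transcription factor gene, with summits 120 bp inside it in replicate 2 and 41 bp outside in replicate 3, and had fold 2.84 and 3.99. Its fragments were 29 and 27 and its control background 8.0 and 5.12. Of the 9 shared loci at the 10 genes, 6 were inside another protein-coding gene or within 1 kb of an end of one. The like share over all shared loci is not given.

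**Figure D3:**
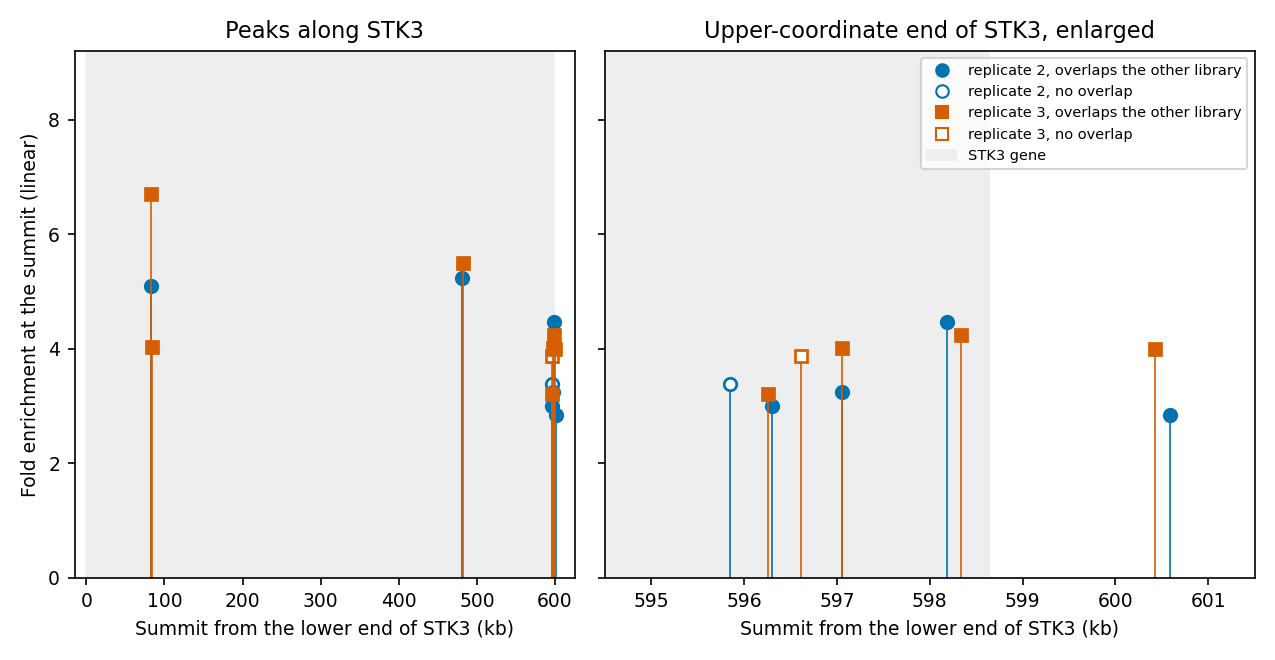
Summits of replicate 2 (circles) and replicate 3 (squares) along STK3, with the distance from its lower-coordinate end in kb on the x axis and fold enrichment (linear) on the y axis. The left panel shows the whole gene in grey and the right panel enlarges its upper-coordinate end. Filled points overlap a peak of the other library. Fold is highest at the 2 loci deep inside the gene.

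Set among all shared loci at protein-coding genes, those of the Hippo genes ranged from near the weakest to near the strongest. The lower fold of the libraries had a median of 3.25 over the 9 loci and 3.56 over all 5019. The STK3 locus with no neighbouring gene exceeded or equalled 98.7% of all loci by this measure, the locus at KCNS2 97.9% and the TEAD3 locus 85.0%. The other STK3 loci stood at 82.1%, 31.9%, 19.8% and 13.5%, TEAD4 at 20.4% and LATS2 at 3.47%. Summits of the libraries were within 100 bp of each other at 5 of the 9 loci, all of them at TEAD4 or STK3. The median gap was 66 bp over the 9 loci, of which STK3 holds 6, against 93 bp over all loci. The share of all loci within 100 bp is not given, but their median gap is itself below 100 bp. Fragments at the 9 loci ran from 19 to 29 in replicate 2 and from 20 to 32 in replicate 3, and a locus was shared only where both libraries passed the call threshold.

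**Figure D4:**
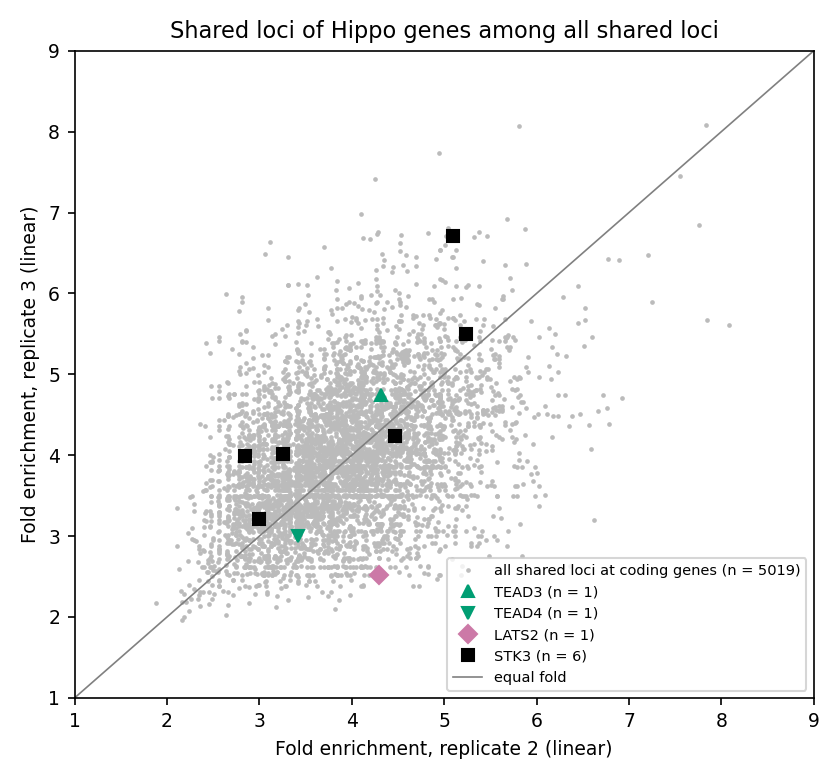
Fold enrichment in replicate 2 (x axis) and replicate 3 (y axis), both linear, at the 5019 loci where peaks of both libraries overlap at a protein-coding gene (grey), with the 9 loci of TEAD3, TEAD4, LATS2 and STK3 marked. The line is equal fold. LATS2 lies below the line, at 4.29 and 2.51, and the STK3 locus at KCNS2 above it, at 5.09 and 6.71.

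The shares of genes with a peak given at the outset, 9, 8 and 4 of 10, take no account of gene length. The 10 genes are long, with a median of 101030 bp against 24170.5 bp. Among protein-coding genes from 21822 bp to 598636 bp, the length range of the 10, the shares were 37.6% for replicate 2, 46.8% for replicate 3 and 28.9% for a shared locus. That range holds 10342 genes and starts below the median of all protein-coding genes, so it matches the 10 for length only coarsely. The shares for either and for both libraries were not compared by length. Counting only summits within 1 kb of either end of a gene left 9 of 10 for replicate 2 (25.1% of all) and 7 of 10 for replicate 3 (32.1% of all). It left 4 of 10 for a shared locus (18.9% of all). These counts are a description of 10 chosen genes, with no test.

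Stricter rules for a shared locus left fewer of the genes. With summits within 100 bp, TEAD4 and STK3 remained, 2 of 10, against 15.6% of all protein-coding genes. With −log10 q of at least 5 in both libraries only STK3 did, 1 of 10, against 6.36%. At the level of single peaks, 8 of the 17 replicate 2 peaks and 7 of the 17 replicate 3 peaks overlapped no peak of the other library. Over all peaks on chromosomes 1 to 22 and X this share was 30.5% in replicate 2 and 50.5% in replicate 3. Median fold over the 17 peaks was 3.41 in replicate 2 and 3.99 in replicate 3, against 3.76 and 3.78 over all peaks. Without STK3 it was 3.52 over 10 peaks and 3.63 over 9.

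Other genes of the pathway were taken from 3 lists. The shares of these lists also take no account of gene length, and they were not compared by length. The kinase-arm list held 27 scaffold proteins, upstream kinases, cadherins and members of the STRIPAK phosphatase complex, which opposes the MST kinases. Of these, 13 had a replicate 2 peak (48.1%, against 33.3% of all protein-coding genes), 14 a replicate 3 peak (51.9%, against 41.3%) and 10 a shared locus (37.0%, against 25.5%). With −log10 q of at least 5 in both libraries the shared count was 1 of 27, against 6.36% of all protein-coding genes. With summits within 1 kb of an end it was 9 of 27, against 18.9%. With reciprocal overlap of 50% it was 2, and no share over all genes is given for that rule. The loci of highest lower fold were at DCHS1, which encodes a large cadherin (4.49 in replicate 2, 4.52 in replicate 3), and at STRN, a STRIPAK subunit gene (4.21 and 5.68). MAP4K kinases can activate LATS kinases alongside STK3 and STK4, and of these MAP4K2 (4.15 and 4.54), MINK1 (4.13 and 4.87) and MAP4K4 (3.86 and 4.38) had shared loci. So did TAOK1 (5.05 and 3.37) and TAOK3 (4.2 and 5.21), whose products phosphorylate STK3 and STK4. MAP4K1, MAP4K3, MAP4K5 and TNIK, the other listed genes of the MAP4K family, had no peak in either library and are named after their values were seen. STRN3, which encodes a further STRIPAK subunit, showed 3.36 and 3.32 on 89 and 83 fragments over a control background of 21.8 in replicate 2, the most fragments of any locus at the listed genes. MAP4K2 shared its locus with MEN1, TAOK3 with SUDS3 and STRN3 with AP4S1.

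NF2, the tumour suppressor Merlin that recruits LATS kinases to the membrane, was outside the naming rule and is given here because its summits coincided, which was seen in its values. They were 1 bp apart, near the start (chromosome 22, 29603534 to 29603976), with fold 3.16 in replicate 2 on 41 fragments and 3.01 in replicate 3 on 37 fragments. Chosen likewise, SAV1, the scaffold of STK3 and STK4, and MOB1B, a coactivator of LATS kinases, had a peak in replicate 3 alone, and MOB1A in replicate 2 alone.

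The list of YAP and TEAD partners and regulators held 18 genes, of which 12 had a replicate 2 peak (66.7%, against 33.3%), 13 a replicate 3 peak (72.2%, against 41.3%) and 9 a shared locus (50%, against 25.5%). With −log10 q of at least 5 in both libraries the shared count was 2 of 18, against 6.36% of all protein-coding genes. With summits within 1 kb of an end it was 3 of 18, against 18.9%, so the higher share was not seen near gene ends. WTIP, which encodes an Ajuba family LIM protein that restrains LATS kinases, led with 2 shared loci (5.00 and 5.25, then 4.2 and 4.92). CSNK1D and CSNK1E, casein kinases that mark YAP1 for degradation, showed 4.25 and 4.44, and 3.59 and 4.02, the CSNK1E locus being also within 1 kb of the readthrough gene TPTEP2-CSNK1E. AMOTL1, a motin that holds YAP1 at junctions, had fold 4.0 and 4.41, at a locus 34122 bp from an end. VGLL4 and VGLL2, which compete with or replace YAP1 on TEAD proteins, had fold 3.88 and 4.07, and 4.37 and 3.35. LIMD1, of the Ajuba family, showed 3.04 and 3.82 at a locus within 1 kb of SACM1L.

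The list of YAP and TEAD target genes held 21, of which 11 had a replicate 2 peak (52.4%, against 33.3%), 13 a replicate 3 peak (61.9%, against 41.3%) and 6 a shared locus (28.6%, against 25.5%). With −log10 q of at least 5 in both libraries the shared count was 2 of 21, against 6.36% of all protein-coding genes. With summits within 1 kb of an end it was 4 of 21, against 18.9%. With reciprocal overlap of 50% it was 3, and no share over all genes is given for that rule. AMOTL2 and PTPN14 stand in both of the last lists. CCN1, a secreted matrix protein and classic YAP target, had 2 shared loci. The locus at its lower-coordinate end had fold 4.10 in replicate 2 and 5.95 in replicate 3, and the other, beside DDAH1, had 4.61 and 4.27. CCN2, the connective tissue growth factor, had fold 2.56 in replicate 2 on 32 fragments over a background of 10.0. In replicate 3 it had fold 5.47 on 36 fragments over a background of 4.90. ASAP1 (4.62 and 5.30), TGFB2 (4.30 and 4.38), CRIM1 (3.81 and 3.95) and AXL (3.52 and 4.13, beside HNRNPUL1) were the others. ANKRD1, another much used YAP target, had no peak in either library and is named after its values were seen.

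**Figure D5:**
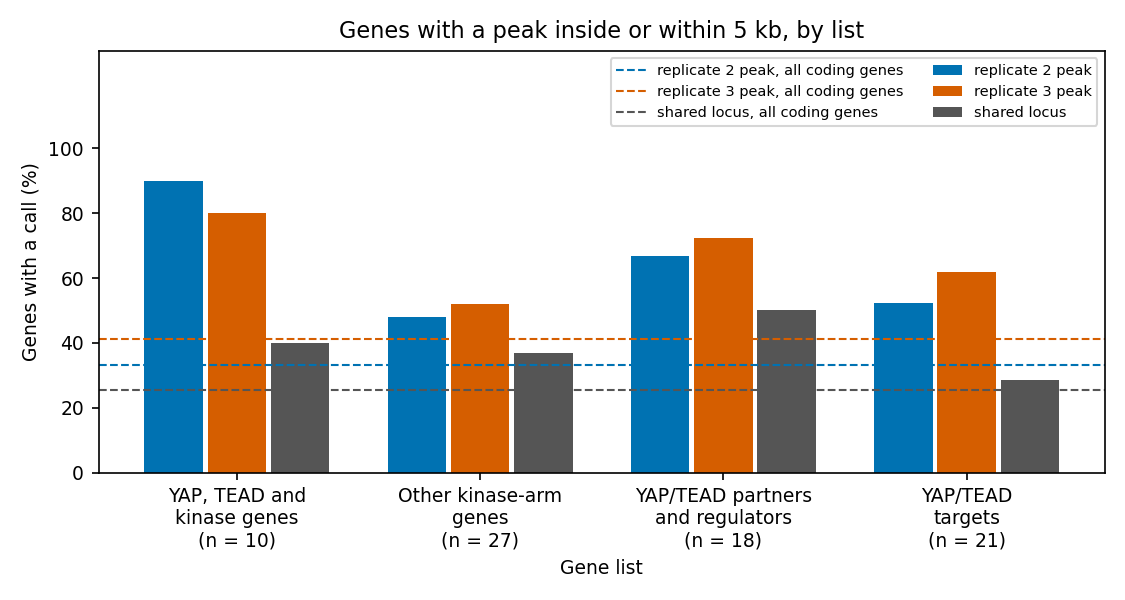
Percentage of genes (y axis) with a replicate 2 peak (blue), a replicate 3 peak (orange) or a shared locus (grey) inside or within 5 kb, for the 10 core genes and the 3 other lists (x axis, with the number of genes). Dashed lines are the shares over all protein-coding genes, 33.3%, 41.3% and 25.5%, and gene length is not taken into account. The core genes stand at 90% and 80% for single libraries and at 40% for a shared locus.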

How the data were processed

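Chromatin occupancy of FOXM1 was measured by ChIP-seq in 2 libraries of untreated Huh7 cells, and each library's deposited peak list was used. The tools named, per the submitters' processing notes, are MACS2 2.2.7.1, CASAVA 1.4 and BWA, with the build GRCh38 and no role for each. The library used as control and the filters are not given in the sources used here. The deposited lists give a fold enrichment (a linear ratio), a −log10 p, a −log10 q and a score for each peak, by the layout of the format. The lowest deposited −log10 q was 1.32 and 1.31, so weaker peaks are not listed and an absent peak says only that this level was not passed.

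Gene positions came from RefSeq (GRCh38.p14). No exon positions were used, and starts came from the promoter table where it lists the gene. Its windows on overlapping positions were checked to read the same bases (2562 pairs, 0 differences). Peaks overlapping by at least 1 bp, both with summits in a gene's window, formed a shared locus, and the highest peak of each library gave its fold. Peaks outside chromosomes 1 to 22 and X (41 and 45) were left out. Fragment counts and control backgrounds were rebuilt from fold (pseudocount 1) and −log10 p, taken as a Poisson tail. A fitted scale of 0.848 and 0.869 multiplied the fragments and not the background. All peaks (100%) came within 0.001 of the deposited −log10 p, and the step was tested on data simulated with scales like the fitted ones. The scale was sought within fixed bounds. A simple fraction of it, with proportionally more fragments, would fit the deposited values as well. Neither check can tell these apart, so fragment counts and their intervals rest on those bounds. Library medians were 26 and 24.5 fragments. Intervals cover counting error only.

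The genes and lists were chosen with earlier results of these data known. All 10 core genes were named, with up to 8 genes with a shared locus from each other list, ranked by the lower fold. The values of 1 such gene are not reported here. Counts are set beside the share over all protein-coding genes, without tests. The length-range and single-library end shares, the shares for either or both libraries and for peaks without overlap, and the comparison with peaks at a like background, were added after seeing the data. Python 3.11.15, numpy 2.4.6, pandas 2.3.3, SciPy 1.17.1 and matplotlib 3.10.9 were used.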

Additional observations from a re-analysis of the deposited data

How the results depend on the processing

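No paired analysis was possible because no result compares groups of libraries. Of the alternatives run, these moved a count by more than 1.5 times, and for the others the count stayed within that. With −log10 q of at least 5, genes with a replicate 2 peak fell from 9 to 2, those with a replicate 3 peak from 8 to 1, those with a shared locus from 4 to 1 and shared loci from 9 to 2. The other lists then had 1 kinase-arm gene, 2 partners and 2 targets with a shared locus, from 10, 9 and 6. With −log10 q of at least 3 there were 2 core genes, 4 core loci and 5 partners. With summits inside the gene, 5 core genes had a replicate 2 peak, 2 had a shared locus and 6 kinase-arm genes had one. Within 1 kb of an end there were 4 core loci and 3 partners. With summits within 100 bp there were 2 core genes and 5 loci, and with reciprocal overlap of 50% there were 1 core gene, 5 loci, 2 kinase-arm genes and 3 targets. With a library left out, a peak in the other alone gave 8 to 9 core genes, 17 core peaks in either case and 11 to 13 targets. The stricter alternatives keep fewer peaks by construction. For a shared locus, the share over all protein-coding genes was 6.36% with −log10 q of at least 5. It was 15.6% with summits within 100 bp and 18.9% within 1 kb of an end. No such share is given for single-library peaks at −log10 q of at least 5. Nor is one given for −log10 q of at least 3, summits inside the gene or reciprocal overlap of 50%. Peaks at the 10 genes rested on 18 to 34 fragments, and detection at lower numbers was not tested.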
